A study of Homo sapiens with 12 samples.

Results

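The Fc receptor-like genes are 7 members of 1 human gene family, FCRL1, FCRL2, FCRL3, FCRL4, FCRL5, FCRLA and FCRLB. They were chosen by symbol, as the rows of the gene table whose Ensembl identifier maps to these 7 symbols, so they are 7 of 57820 genes. No threshold on a value was part of that choice, but the family was selected with earlier results of these libraries known, so its levels across cell lines are given as a description. RNA was sequenced from JVM3, HG3 and MEC1, 3 established human B cell lines labelled as chronic lymphocytic leukaemia. In each line, cells with mutant U1, the g.3A>C change of the small nuclear RNA that pairs with 5′ splice sites, were set against cells of the same line with wild-type U1. That makes 6 groups (JVM3, HG3 and MEC1, each with mutant and with wild-type U1) of 2 technical replicates, 12 libraries in all. How mutant U1 was brought into the cells, and whether cells of a line share a clone, is not stated in the labels.

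Fc receptor-like proteins are immunoglobulin superfamily relatives of the classical Fc receptors, found mainly in B lineage cells. FCRL1 to FCRL5 span the cell membrane and carry tyrosine motifs in their tails, activating (ITAM-like) or inhibitory (ITIM), through which kinases and phosphatases tune B cell receptor signals. FCRLA and FCRLB lack a membrane span and stay inside the cell. Several of the surface members are followed on leukaemic and plasma cells, FCRL2 as a prognostic marker of chronic lymphocytic leukaemia and FCRL5 as a target in myeloma.

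All 7 genes lie on chromosome 1, FCRL1 to FCRL5 side by side on the minus strand and FCRLA and FCRLB on the plus strand near the Fc gamma receptors. The start regions of FCRL5, FCRL2 and FCRLA are shown because these genes had the lowest levels relative to wild type in HG3. Each window runs from 250 bases before to 50 bases after the gene's start, as in the RefSeq table of GRCh38.p14, and is written in the direction of transcription. Capitals mark the 7 letters AGGAAGT or the reverse complement ACTTCCT, a core that ETS family factors such as PU.1 can bind.
FCRL5 (chr1:157552466-157552765, minus strand): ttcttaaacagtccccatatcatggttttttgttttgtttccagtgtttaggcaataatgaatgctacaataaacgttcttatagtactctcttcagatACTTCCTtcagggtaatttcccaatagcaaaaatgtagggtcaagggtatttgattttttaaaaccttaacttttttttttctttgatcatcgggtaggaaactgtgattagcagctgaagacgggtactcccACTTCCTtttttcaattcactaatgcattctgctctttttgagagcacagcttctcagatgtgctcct
FCRL2 (chr1:157777083-157777382, minus strand): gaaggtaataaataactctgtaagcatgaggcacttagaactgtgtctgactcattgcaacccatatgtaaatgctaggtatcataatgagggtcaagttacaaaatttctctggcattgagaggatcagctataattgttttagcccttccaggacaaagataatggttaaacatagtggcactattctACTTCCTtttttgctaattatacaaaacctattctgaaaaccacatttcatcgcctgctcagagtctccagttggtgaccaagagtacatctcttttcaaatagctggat
FCRLA (chr1:161706979-161707278, plus strand): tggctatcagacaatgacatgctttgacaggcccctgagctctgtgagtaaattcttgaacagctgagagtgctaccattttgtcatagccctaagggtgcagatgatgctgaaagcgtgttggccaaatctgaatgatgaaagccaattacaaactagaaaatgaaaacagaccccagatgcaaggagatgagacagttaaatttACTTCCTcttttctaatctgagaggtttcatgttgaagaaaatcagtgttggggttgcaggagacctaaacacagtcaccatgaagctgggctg

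The motif was picked after the sequences had been seen. FCRL5 held it at positions -151 and -18 from the start, FCRL2 at -60 and FCRLA at -44, in each case as ACTTCCT. It was also in the FCRL1 window, at -217 and -16, and in no window of FCRL3, FCRL4 or FCRLB. Of 35116 windows of the same length, 8.24% held it on either strand, against 4 of the 9 windows of the 7 members (FCRLB has 3). The octamer ATGCAAAT was found in 1.77% of all windows and in 1 member, FCRLB. The RBPJ core TGGGAA was in 24.0% of windows and in FCRL3, FCRL5 and FCRLB. Only these letters were searched, on both strands, and a match is not evidence of binding. The ETS motif was present both in FCRL1, which was almost silent here, and in FCRLA, the member with the highest mean CPM over the 12 libraries.

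The libraries held 29880079 to 39716818 counts assigned to genes. All 10 B cell markers of a list (among them CD79A, MS4A1 and PAX5) averaged at least 1 CPM (counts scaled to the library total) over the 12 libraries. Single libraries could lie far lower, and CD5 ran from 0.0282 CPM to 42.1 CPM, the latter in wild-type HG3. Of 6 T cell markers, CD4 alone averaged 1 CPM or more, with up to 9.87 CPM in 1 JVM3 library, CD3E reached at most 0.606 CPM and CD3G was at 0 in every library. The T cell list summed to 0.607 to 9.95 CPM in mutant and 0.558 to 10.4 CPM in wild-type libraries. Of the erythroid and platelet list, HBB reached at most 0.758 CPM, and HBA1, PF4 and PPBP were at 0 in every library. Among NK cell markers, GNLY alone averaged 1 CPM or more, with up to 13.98 CPM in mutant MEC1. The NK cell list summed to 15.8 to 16.8 CPM in mutant and 15.3 to 16.4 CPM in wild-type MEC1. It stayed under 1 CPM in JVM3 and HG3. CD33 alone averaged 1 CPM or more in the myeloid list (up to 7.07 CPM, wild-type HG3). In the stromal and epithelial list COL1A1 alone did (up to 4.96 CPM, mutant HG3). RNU1-1, a U1 gene with near-identical copies, was at 54.1 and 54.3 CPM in mutant and 40.01 and 40.5 CPM in wild-type JVM3, at 249 and 163 CPM against 29.3 and 28.8 CPM in HG3, and at 25.4 and 24.2 CPM against 13.1 and 12.7 CPM in MEC1. These counts do not tell the mutant sequence from the wild-type sequence. Because the replicates are technical, a p-value within 1 line covers technical spread alone, and across lines the 3 lines serve as replicates.

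**Figure D1:**
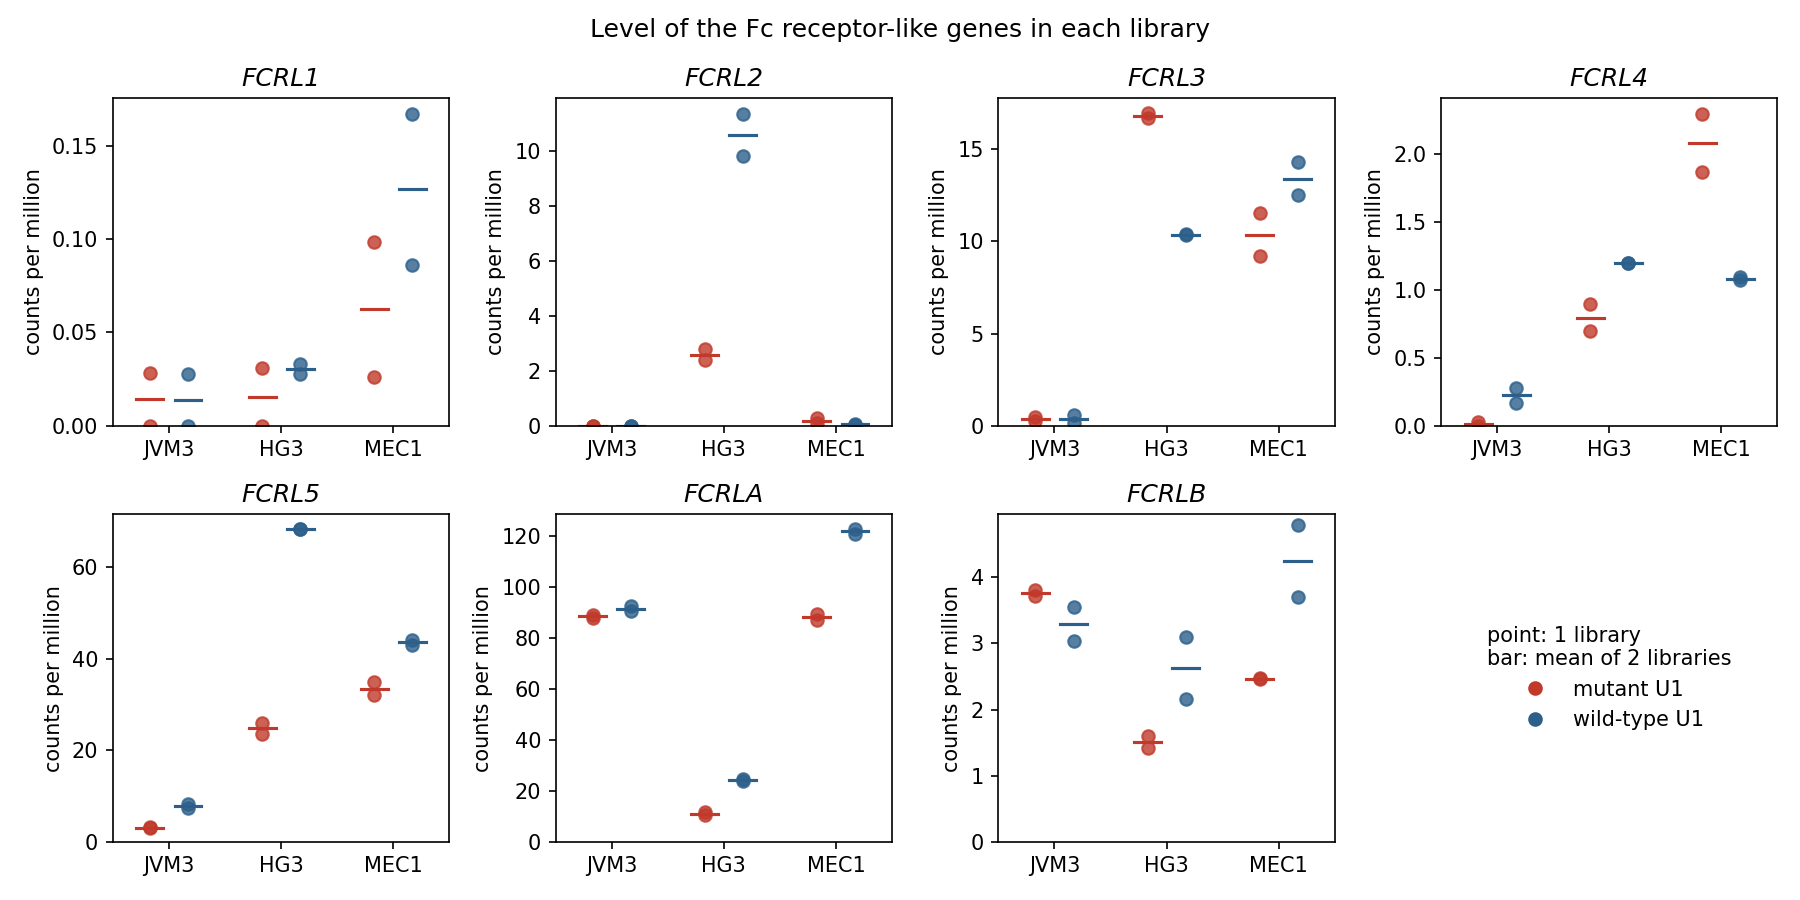
Level (CPM) of each Fc receptor-like gene (1 panel a gene, linear axis from 0) in the 12 libraries, with mutant U1 in red to the left of wild-type U1 in blue within each line. Each point is 1 library and each bar the mean of 2. FCRL5 lies lower with mutant U1 in all 3 lines, FCRLA lies lower in HG3 and MEC1, and FCRL3 lies higher in HG3 and lower in MEC1.

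Family expression differed by line before U1 status was considered. In wild-type U1 cells the 7 genes summed to 102 and 105 CPM in JVM3, 117 and 117 CPM in HG3, and 181 and 187 CPM in MEC1. The make-up of these sums differed. FCRLA took 88.8% and 88.3% of family counts in wild-type JVM3, 66.6% and 65.6% in MEC1 and 21.1% and 20.4% in HG3, where FCRL5 took 58.1% and 58.2%. With mutant U1 the sums were 95.4 and 96.1 CPM in JVM3, 57.0 and 58.2 CPM in HG3, and 135 and 139 CPM in MEC1, below the wild-type libraries of the same line in each case. In HG3 the share of FCRL5 was 41.2% and 44.8% in mutant libraries, against 58.1% and 58.2% in wild type, while FCRL3 took 29.7% and 28.7% against 8.79% and 8.85%.

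**Figure D2:**
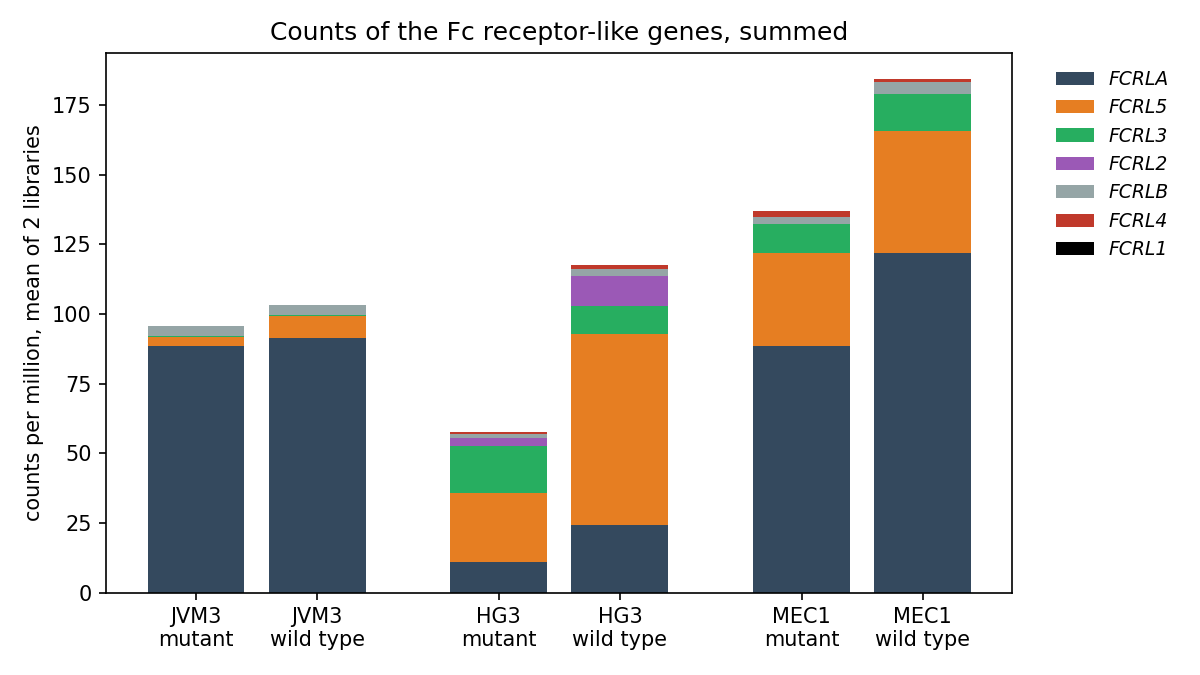
Summed level of the 7 genes in each group, as CPM (mean of 2 libraries, axis from 0), with mutant left of wild type in each line and 1 colour a gene. The stack is shorter with mutant U1 in each line, most in HG3, and is mostly FCRLA in JVM3 and MEC1 but mostly FCRL5 in wild-type HG3.

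Across the 3 lines no Fc receptor-like gene passed the test, and FCRL5 came closest. Of the 6 members tested (FCRL1 had too few counts), 0 had an adjusted p under 0.05 by edgeR's quasi-likelihood test over all genes, 2 had an unadjusted p under 0.05 (FCRL5 and FCRLA), and DESeq2 called 1, FCRL5. The background was 3.69% of 21270 genes called. The median log2 fold change of the 6 members, chosen with earlier results known, was -0.50, against -0.01 over all genes tested. Within lines more members passed. In JVM3, 2 of 6 were called lower, with a background of 12%, and 0 were called higher, with a background of 10.4%. In HG3, 4 were lower and 1 was higher, against 19.6% and 18.7% of all genes. In MEC1 the counts were again 4 and 1, against 18.6% and 18%. For the members this median was -0.09 (JVM3), -0.96 (HG3) and -0.44 (MEC1), where all genes gave -0.02, 0.01 and 0.00, and FCRL2, with no count in JVM3, entered there as 0.

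**Figure D3:**
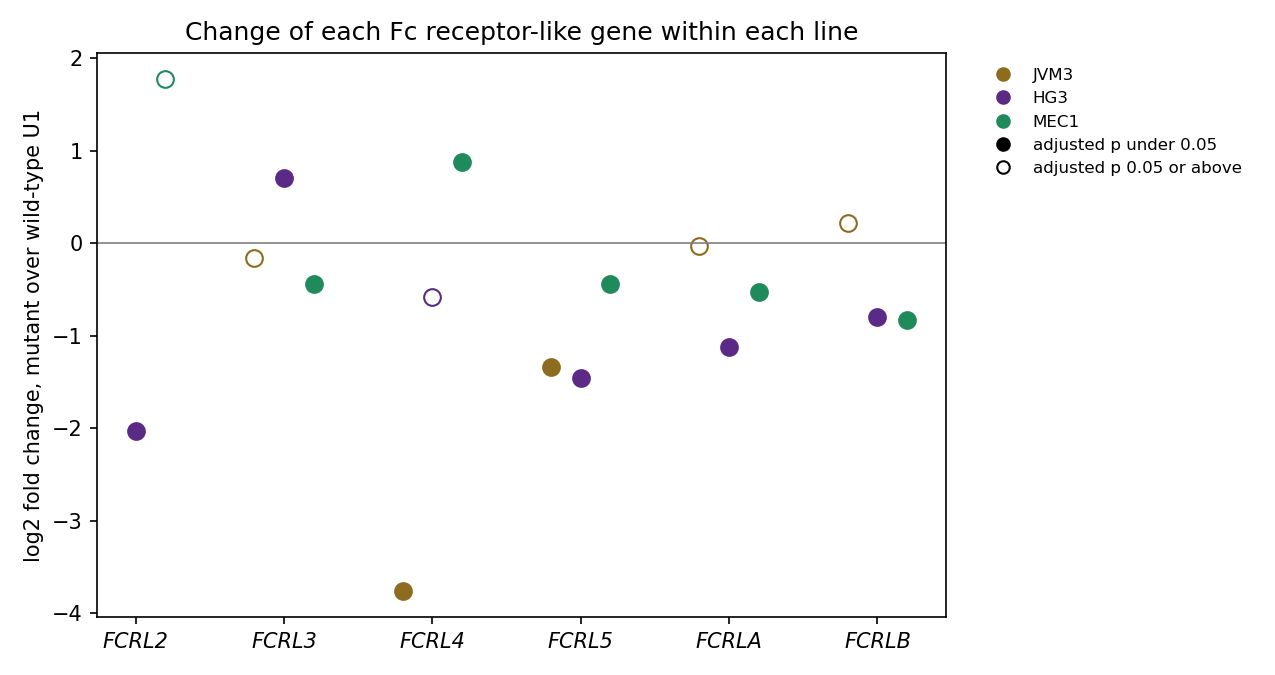
Log2 fold change of 6 Fc receptor-like genes, mutant over wild-type U1, within JVM3, HG3 and MEC1 (points; filled where edgeR's adjusted p is under 0.05). FCRL5 is below 0 in all 3 lines, and FCRL3 and FCRL4 have called values on both sides of 0; FCRL2 in JVM3, with no count, is not drawn.

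FCRL5, a surface receptor that binds IgG and marks plasma cells and atypical memory B cells, was lower with mutant U1 in each line. JVM3 had 3.27 and 2.95 CPM in mutant and 7.52 and 8.34 CPM in wild-type libraries. In HG3 it stood at 23.5 and 26.1 CPM in mutant and 68.3 and 68.3 CPM in wild-type libraries. In MEC1 the mutant libraries had 32.0 and 34.9 CPM and the wild-type libraries 43.0 and 44.1 CPM. The groups did not overlap in any line, and relative to wild type the difference was smallest in MEC1. With 2 libraries in a group, such separation is weak evidence, and other members showed it for changes that were not called. FCRLA in JVM3 was 1 of these (adjusted p = 0.758 by edgeR). The share of all genes without overlap was not counted. For FCRL5 the ratio of summed CPM was 0.389 (95% exact binomial interval 0.332 to 0.455) in JVM3, 0.363 (0.343 to 0.384) in HG3 and 0.765 (0.724 to 0.809) in MEC1. FCRL5 fell by edgeR's within-line test in JVM3 (log2 fold change -1.34, adjusted p = 7.92e-13), HG3 (-1.46, adjusted p = 5.82e-24) and MEC1 (-0.44, adjusted p = 5.46e-08). Across lines the log2 fold change was -1.07 (SE 0.32, 3 lines, unadjusted p = 0.00204, adjusted p = 0.0521 by edgeR), lower in 3 of 3 lines. That value sits at the threshold, with adjusted p of 0.0482 under other size factors (RLE), 4.85e-05 by DESeq2, and 0.182 without JVM3.

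The size of the FCRL5 change differed between lines (adjusted p = 7.68e-13 by edgeR's test of the difference). It differed between HG3 and MEC1 (log2 difference -1.012, adjusted p = 4.65e-13) and between MEC1 and JVM3 (0.89, adjusted p = 6.79e-07). Between HG3 and JVM3 the difference was -0.12 (adjusted p = 0.612). All 5 plasma cell markers of a list (SDC1, PRDM1, XBP1, JCHAIN, TNFRSF17) averaged at least 1 CPM. In JVM3 they summed to 258 to 268 CPM with mutant and 313 to 316 CPM with wild-type U1. In HG3 it was 474 to 480 CPM in mutant and 752 to 777 CPM in wild type, and in MEC1 586 to 600 CPM against 838 to 875 CPM. The plasma cell sum was thus lower with mutant U1 in every line, as FCRL5 was. The sum of the 10 B cell markers was lower too, at 2031 to 2046 CPM in mutant and 2135 to 2187 CPM in wild-type JVM3. It was 2913 to 2991 CPM against 3027 to 3109 CPM in HG3, and 2670 to 2675 CPM against 3060 to 3065 CPM in MEC1. Abundant genes weigh most in such a sum, and not every B cell marker peaked in wild type. The highest library was a mutant one for MS4A1 (1354 CPM, HG3), PAX5 (308 CPM, MEC1) and CD79A (197 CPM, MEC1). For the rest of that list it was a wild-type one. The part of either sum in the FCRL5 result was not tested. In a bulk sample, fewer cells of a type and less RNA per cell cannot be told apart.

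FCRL2, a receptor of memory B cells with both kinds of tyrosine motif, was expressed in HG3 and nearly silent in the other lines. In HG3 it stood at 2.37 and 2.79 CPM in mutant and 9.82 and 11.4 CPM in wild-type libraries. In MEC1 it had 4 and 8 counts in mutant and 2 and 1 counts in wild-type libraries, and in JVM3 0 counts in all 4. A count of 0 allows up to 0.0399 CPM over the mutant and 0.0455 CPM over the wild-type JVM3 libraries (3 counts, counting error only). In HG3 both mutant libraries lay well below both wild-type libraries, with a ratio of 0.245 (0.206 to 0.291), while in MEC1 they lay above them on few counts. It fell in HG3 (log2 fold change -2.03, adjusted p = 2.15e-13 by edgeR). In MEC1 the ratio was 3.78 with a counting interval of 1.02 to 20.9, and the log2 fold change of 1.78 did not pass (adjusted p = 0.0679 by edgeR), with 2.34 (adjusted p = 0.0275) without mutant replicate 1 and 1.07 (adjusted p = 0.499) without mutant replicate 2. The response differed between HG3 and MEC1 (log2 difference -3.80, adjusted p = 1.59e-04 by edgeR). Across lines the log2 fold change was -1.43 (adjusted p = 0.316 by edgeR), a fit to which JVM3 adds no count. DESeq2 gave -0.19 (adjusted p = 0.972) for the same comparison.

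FCRL3, which has inhibitory and activating motifs and is found on B cells and some T and NK cells, moved in opposite directions in 2 lines. In HG3 it stood at 16.9 and 16.7 CPM in mutant and 10.3 and 10.4 CPM in wild-type libraries. In MEC1 the mutant libraries had 9.19 and 11.5 CPM and the wild-type libraries 12.5 and 14.3 CPM. JVM3 had 16 and 10 counts in mutant and 5 and 21 counts in wild-type libraries. Mutant libraries were thus the higher in HG3, the lower in MEC1, and overlapped wild type in JVM3. FCRL3 rose in HG3 (ratio 1.62, interval 1.47 to 1.79; log2 fold change 0.71, adjusted p = 1.47e-05 by edgeR). It fell in MEC1 (ratio 0.767, interval 0.693 to 0.849; log2 fold change -0.44, adjusted p = 0.00445 by edgeR). The MEC1 call was lost without mutant replicate 1 (-0.28, adjusted p = 0.0956) or wild-type replicate 2 (-0.34, adjusted p = 0.0775). In JVM3 the log2 fold change was -0.16 (adjusted p = 0.863 by edgeR), and across lines 0.09 (SE 0.34, 3 lines, adjusted p = 0.875 by edgeR). The response differed between HG3 and MEC1 by 1.14 on the log2 scale (adjusted p = 5.37e-06 by edgeR).

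FCRL4, an inhibitory receptor of memory B cells in tissues that binds IgA, was scarce in every line. In MEC1 it stood at 1.87 and 2.30 CPM in mutant and 1.09 and 1.07 CPM in wild-type libraries, a ratio of 1.90 (1.42 to 2.57). In HG3 the mutant libraries had 0.893 and 0.698 CPM and the wild-type libraries 1.20 and 1.20 CPM, a ratio of 0.663 (0.458 to 0.953). In JVM3 there were 1 and 0 counts in mutant and 5 and 10 counts in wild-type libraries, a ratio of 0.0585 (0.00139 to 0.380). Mutant libraries lay above wild type in MEC1 and below it in JVM3 and HG3, without overlap. By edgeR the change was called in JVM3 (log2 fold change -3.76, adjusted p = 0.00135) and in MEC1 (0.88, adjusted p = 0.00954) but not in HG3 (-0.58, adjusted p = 0.138). In JVM3 the value was -2.85 (adjusted p = 0.0507) without mutant replicate 2 and -6.06 (adjusted p = 0.00461) without mutant replicate 1. In MEC1 the call was lost without mutant replicate 2 (0.74, adjusted p = 0.0799), without wild-type replicate 1 (0.89, adjusted p = 0.0536) or 2 (0.87, adjusted p = 0.0566), and by DESeq2 (0.88, adjusted p = 0.0935). The response differed between MEC1 and JVM3 (log2 difference 4.64, adjusted p = 1.69e-04), HG3 and JVM3 (3.18, adjusted p = 0.0175) and HG3 and MEC1 (-1.46, adjusted p = 0.00679 by edgeR). Across lines the log2 fold change was -0.20 (SE 1.01, 3 lines, adjusted p = 0.883 by edgeR), and -0.76 by DESeq2 (adjusted p = 0.634).

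FCRLA, an endoplasmic reticulum protein that binds immunoglobulins inside B cells, was lower with mutant U1 in HG3 and MEC1. HG3 had 11.7 and 10.5 CPM in mutant and 24.7 and 23.9 CPM in wild-type libraries. In MEC1 the mutant libraries had 89.5 and 87.2 CPM and the wild-type libraries 121 and 123 CPM. JVM3 had 87.9 and 89.1 CPM in mutant and 90.4 and 92.4 CPM in wild-type libraries, close together but not overlapping. The ratio was 0.456 (0.417 to 0.498) in HG3, 0.726 (0.702 to 0.751) in MEC1 and 0.967 (0.934 to 1.00) in JVM3. FCRLA fell in HG3 (log2 fold change -1.13, adjusted p = 8.44e-19 by edgeR) and MEC1 (-0.52, adjusted p = 9.98e-14). In JVM3 its log2 fold change was -0.03 (adjusted p = 0.758 by edgeR). The response differed between each pair of lines, by -1.10 for HG3 minus JVM3 (adjusted p = 8.78e-15), -0.50 for MEC1 minus JVM3 (adjusted p = 2.07e-08) and -0.60 for HG3 minus MEC1 (adjusted p = 5.40e-08 by edgeR). Across lines it was -0.54 (SE 0.32, 3 lines, unadjusted p = 0.0334, adjusted p = 0.188 by edgeR), with -0.83 without JVM3 and -0.28 without HG3.

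FCRLB, the other intracellular member, was low in all lines. In MEC1 it stood at 2.47 and 2.46 CPM in mutant and 3.71 and 4.79 CPM in wild-type libraries. In HG3 the mutant libraries had 1.60 and 1.43 CPM and the wild-type libraries 3.10 and 2.16 CPM. JVM3 had 3.72 and 3.80 CPM in mutant and 3.56 and 3.04 CPM in wild-type libraries. Mutant libraries were lower in MEC1 and HG3 and slightly higher in JVM3, with no overlap. FCRLB fell in MEC1 (ratio 0.587, interval 0.481 to 0.714; log2 fold change -0.83, adjusted p = 1.30e-04 by edgeR) and in HG3 (ratio 0.567, interval 0.439 to 0.729; log2 fold change -0.80, adjusted p = 0.00130 by edgeR). The HG3 call was lost without wild-type replicate 1 (-0.51, adjusted p = 0.122). In JVM3 the log2 fold change was 0.22 (adjusted p = 0.407 by edgeR). The change in HG3 minus that in JVM3 was -1.02 (adjusted p = 0.00366 by edgeR), and that in MEC1 minus that in JVM3 was -1.05 (adjusted p = 0.00109). Across lines the value was -0.46 (SE 0.34, 3 lines, adjusted p = 0.300 by edgeR), with -0.84 without JVM3, -0.30 without HG3 and -0.26 without MEC1.

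FCRL1, an activating co-receptor of the B cell receptor that is common on mature B cells, was almost absent. It had 1 and 0 counts in mutant and 0 and 1 in wild-type JVM3, 1 and 0 against 1 and 1 in HG3, and 1 and 3 against 3 and 5 in MEC1. It was left out of the tests by the filter on low counts. FCRL6, a relative that is not among the 7 genes, had 0 counts in JVM3 and HG3 and 5 and 4 against 7 and 1 in MEC1. For all 6 members tested, the response to mutant U1 differed between lines at an adjusted p under 0.05 by edgeR, with 32% of all genes as background.

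To compare members with each other, CPM were divided by the length of all exons in kilobases (CPM per kb). That length takes in every annotated exon, 12.4 kb for FCRL5 and 3.28 kb for FCRLA, and the ranks depend on it. In plain CPM FCRL5 led in HG3, at 24.8 in mutant and 68.3 in wild type, against 11.1 and 24.3 for FCRLA. On the CPM per kb scale FCRLA led in every group, at 27 in mutant and 27.9 in wild-type JVM3, 3.39 and 7.43 in HG3, and 27 and 37.2 in MEC1. FCRL5 followed in MEC1 at 2.70 in mutant and 3.51 in wild type. In wild-type HG3 it stood second at 5.50 against 2.00 in mutant, where FCRL3 came second at 2.57. In JVM3 FCRLB came second, at 1.45 in mutant and 1.27 in wild type, and FCRL5 after it, at 0.250 and 0.638. Among lines, the order of levels in CPM changed with U1 status for 5 genes. FCRL5 was highest in MEC1 among mutant libraries and in HG3 among wild-type libraries, and FCRL4 likewise. FCRL3 was highest in HG3 among mutant and in MEC1 among wild-type libraries. FCRLA and FCRLB were highest in JVM3 among mutant and in MEC1 among wild-type libraries. The mutant JVM3 and MEC1 libraries overlapped for FCRLA, as did the wild-type JVM3 and HG3 libraries for FCRLB.

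The genes with the most similar pattern over the 12 libraries were found by Pearson's r of log2 CPM among 14611 genes averaging at least 1 CPM. They are given as a description, since the 12 libraries share 3 lines and most of the pattern is the difference between lines. For FCRL5 they were MRPS6 (r = 0.987), CHL1 (0.987) and MYB (0.986), and 617 genes exceeded an r of 0.9. For FCRLA they were IQGAP2 (0.996), FCGR2B (0.996), the inhibitory Fc gamma receptor, and INHBE (0.994). FCRL3 was closest to SCPEP1 (0.996), CCDC26 (0.993) and an identifier without a symbol (0.993), and FCRL2 to ETHE1 (0.985), PAX3 (0.982) and EDNRA (0.981). FCRLB had fewer close matches, led by MX1 (0.953), GASAL1 (0.926) and COPS7A (0.917). Among members, FCRL5 and FCRL3 had r = 0.891 and FCRLA and FCRLB had r = 0.834, while FCRL2 and FCRLA had r = -0.826.

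Genes around the family in the same pathways were read from 6 gene lists, with the same across-line test and its background of 3.69%. Of 12 other Fc and immunoglobulin-binding receptors tested, 0 were called. The smallest p values there were those of FCMR, the IgM receptor (log2 fold change -0.34, SE 0.08, adjusted p = 0.0666), and FCGRT, the neonatal Fc receptor (-0.83, SE 0.13, adjusted p = 0.102). FCGRT was scarce, at a mean of 0.571 CPM in mutant and 1.04 CPM in wild type. Of 18 effectors of ITIM and ITAM-like motifs, 1 fell, the tyrosine kinase SYK (-0.71, SE 0.17, adjusted p = 0.0178 by edgeR), and the phosphatase PTPN6, which binds ITIMs, had -0.21 (SE 0.09, adjusted p = 0.205). Of 11 inhibitory B cell receptors 0 were called, and CD22 was nearest, at -0.42 (SE 0.13, adjusted p = 0.0512 by edgeR), with PDCD1 at -0.41 (SE 0.34, adjusted p = 0.298). The 11 genes of atypical memory B cells, the subset in which FCRL4 and FCRL5 are markers, held 1 that rose, the costimulatory ligand CD86 (0.68, SE 0.20, adjusted p = 0.0324 by edgeR). Among germinal centre genes, LMO2, a transcriptional co-regulator, fell (-1.14, SE 0.20, adjusted p = 0.0434 by edgeR). Of 10 tested neighbours on chromosome 1, 0 were called, and CD1C (-2.11, SE 0.72, adjusted p = 0.0809) and ETV3 (0.28, SE 0.06, adjusted p = 0.101) had the smallest p values. CD1C rested on few counts, at a mean of 0.0802 CPM in mutant and 0.363 CPM in wild type. The median log2 fold changes of these 6 lists across lines ran from -0.18 to 0.11, against -0.01 for all genes and -0.50 for the Fc receptor-like genes. These medians are a description, since the family and the lists were chosen with earlier results of these data known. The family's median rests on 6 members, of which 0 were called. Within lines, edgeR called 1 of the 12 other Fc and immunoglobulin-binding receptors lower and 1 higher in JVM3. In HG3 the counts were 5 and 0, and in MEC1 6 and 0. The matching backgrounds were 12% and 10.4%, 19.6% and 18.7%, and 18.6% and 18%. FCGR2B had log2 fold changes of -0.01 (JVM3), -0.97 (HG3) and -0.25 (MEC1), beside -0.03, -1.13 and -0.52 for FCRLA.

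Splice junctions were counted in 6 columns, 1 for each line and U1 status. Junctions could be placed on FCRLA (14 junctions, 7975 reads), FCRL5 (14 junctions, 899 reads), FCRL2 (10 junctions, 182 reads) and FCRL1 (23 junctions, 8 reads), and not on FCRL3, FCRL4 or FCRLB. Of these, 9 in FCRLA and 2 in FCRL5 had a competitor at the same acceptor and enough reads to be tested. None was called by edgeR's diffSpliceDGE, where the background was 2.78% of 35857 junctions, and 2 had an unadjusted p under 0.05. The deepest junctions, from 161680702 to 161680998 in FCRLA (hg19, 1881 reads) and from 157512927 to 157514052 in FCRL5 (247 reads), had no competitor at their acceptor. The deepest in FCRL2, from 157745585 to 157746833, had 46 reads, all in HG3 (11 in mutant and 35 in wild type), and was not tested.

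The exon with the most reads at the acceptor shared with its skip, 2014 over all columns, was a coding exon of 18 bases in FCRLA (hg19 chr1:161680265-161680282), which keeps the reading frame. Transcripts with and without it follow, from GENCODE 29, with the short exon in capitals between 30 bases of the exons on either side.
FCRLA with the short exon: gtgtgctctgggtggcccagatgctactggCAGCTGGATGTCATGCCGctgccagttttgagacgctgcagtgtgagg
FCRLA without the short exon: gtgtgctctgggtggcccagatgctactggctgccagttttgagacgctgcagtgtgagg

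The short exon was used less with mutant U1 in every line, but the difference did not pass the test. Of reads that reached the next exon from it or from the exon before, 2.37% (95% Wilson interval 1.33 to 4.195, 464 reads) came from the short exon in mutant and 4.58% (2.88 to 7.22, 371 reads) in wild-type JVM3. In HG3 the share was 20.5% (11.2 to 34.5, 44 reads) in mutant and 34.7% (26.8 to 43.6, 121 reads) in wild type. In MEC1 it was 18.2% (15.0 to 22.0, 461 reads) against 25.3% (21.9 to 29.1, 553 reads). The intervals overlapped in JVM3, HG3 and, by a narrow margin, MEC1, and JVM3 lay below the other lines in both U1 groups. Reads on both sides of the exon gave an inclusion of 12.4% ± 8.76 in mutant and 19.5% ± 13.9 in wild type (SD, n = 3 lines), a mean change of -7.10 points. The junction that leaves the short exon had an unadjusted p of 0.0430 and an adjusted p of 0.420 by diffSpliceDGE, and the junction that skips it an adjusted p of 0.861.

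**Figure D4:**
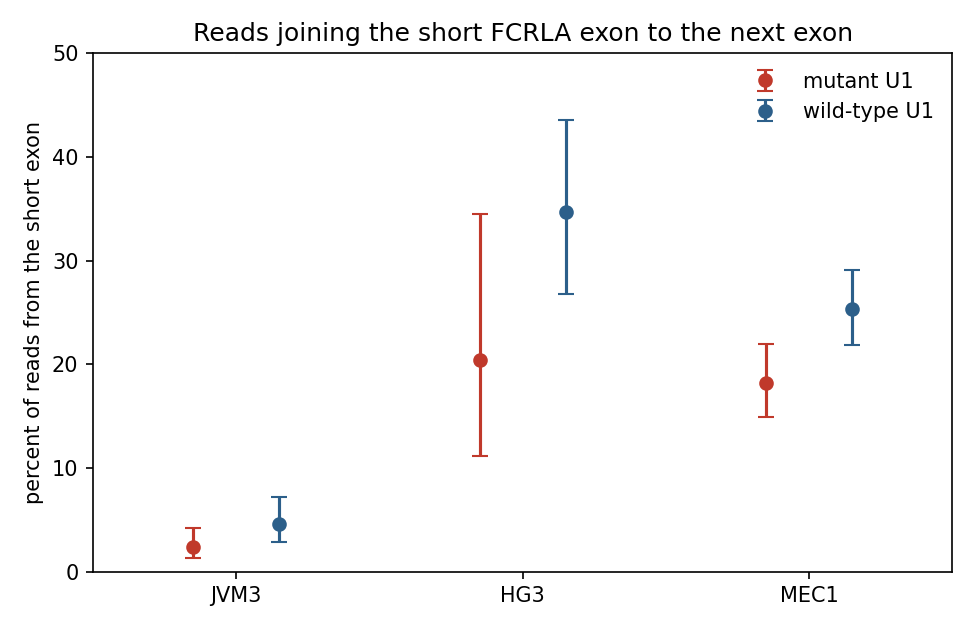
Percent of reads reaching the next FCRLA exon that came from the short exon, with mutant U1 left of wild-type U1 in each line (points, with 95% Wilson intervals, which cover counting error only). Mutant values lie below wild type in all 3 lines, with overlapping intervals.

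Other FCRLA junctions moved less on average over the lines. The junction from 161680702 to 161681724, which leaves out a coding exon of 267 bases, took 10.5% of its acceptor's reads in mutant and 9.27% in wild-type JVM3. It took 1.89% against 1.04% in HG3, where 1 read each lay behind it, and 5.29% against 1.32% in MEC1 (21 and 6 reads). By diffSpliceDGE its unadjusted p was 0.0273 and its adjusted p 0.316, both below those of the short exon's junctions. At the acceptor shared with this skip, the 95% Wilson intervals of inclusion in MEC1 were 92.0 to 96.5 in mutant and 97.1 to 99.4 in wild type. These did not overlap, while those in JVM3 and HG3 did. In FCRL5 an exon of 93 bases was included at 9.09% in mutant and 20% in wild-type JVM3, on 6 reads each at the acceptor shared with the skip. Inclusion reached 14.6% with mutant and 10.4% with wild-type U1 in HG3, and 16.7% with mutant and 10.1% with wild-type U1 in MEC1, so the direction was not shared (SD of the change 9.49 points, 3 lines). FCRL5 junction reads totalled 13 with mutant and 33 with wild-type U1 in JVM3, 137 and 325 in HG3, and 194 and 197 in MEC1. They were lower with mutant U1 in JVM3 and HG3 and nearly equal in MEC1. These totals were not scaled to the reads of each column.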

How the data were processed

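RNA sequencing of 12 libraries was used, 2 technical replicates for each line and U1 status, with groups and replicate numbers taken from the labels. The libraries were stranded and made from Trizol-extracted RNA depleted of ribosomal RNA, per the labels' protocols. The gene table holds raw read counts deposited by the authors, and the submitters' processing notes name STAR 2.5.4b, HTSeq 0.9.1, hg19 and GRCh37. Strand setting, annotation release and junction caller: not given in the sources used here. Lines that name no gene took 17.7% to 24.9% (no feature), 0.897% to 1.06% (ambiguous) and 29.0% to 34.9% (not unique) of the gene counts per library, and were left out of totals and tests. The columns of the junction table hold junction read counts deposited by the authors, with replicates pooled.

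The 7 members and all gene lists were chosen with earlier results of these data known. All 7 symbols matched the gene name table. Genes were tested with edgeR 4.0.16 in R 4.3.3 (quasi-likelihood, robust, TMM, filterByExpr over the 6 groups, Benjamini-Hochberg over 21270 genes). Across lines, replicates were summed and the line was a block, and the SE is that of the 3 lines' log2 ratios with a prior count of 2. Within lines, and in the F-test of whether lines differ, a fit of 6 groups on 12 libraries was used. DESeq2 1.42.0 was an alternative. CPM used plain library totals, ratio intervals are exact binomial on summed counts, and intervals and the floor of 3 counts cover counting error only. Lengths for CPM per kb are the union of GENCODE 29 exons. Of each list, the genes called across lines are named, or else the 2 with the smallest p. Some results of the lists are not reported here. PTPN6 and FCGR2B were named in addition, after their values were seen. Likeness used log2(CPM + 0.5).

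Junction coordinates are hg19, as deposited, running from the final exon base before an intron to the base that opens the following exon. Junctions were placed on genes by the lengths and spacing of introns in GENCODE 29, with at least 3 matches, and no coordinate was converted between builds. Junctions with at least 20 reads that shared an acceptor were tested with diffSpliceDGE and a term for the line. They were called at an adjusted p under 0.05 where the change averaged 5 points or more, with 1 sign in all lines. The across-line and within-line edgeR tests and the junction test were checked on simulated data with known changes, the same in all lines. The tests of whether lines differ, and DESeq2, were not checked in this way. Promoters were read from a RefSeq table and transcripts from GENCODE 29.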

Additional observations from a re-analysis of the deposited data

Results flagged for a closer look

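The change with mutant U1 differed between JVM3, HG3 and MEC1 for each of the 6 Fc receptor-like genes that could be tested, by edgeR's F-test of the difference over all genes (32% of all genes passed it). The adjusted p was 0.000457 for FCRL2, where JVM3 had no count and the comparison is between HG3 and MEC1. The MEC1 side rests on 12 mutant and 3 wild-type counts and was not called by itself. For FCRL3 it was 1.55e-05, with a log2 fold change of 0.71 in HG3 and -0.44 in MEC1. FCRL4 had 7.25e-05, with called values of -3.76 in JVM3 and 0.88 in MEC1 on few counts. FCRL5 had 7.68e-13, with the same direction in 3 of 3 lines and the smallest change in MEC1. FCRLA had 6.91e-15, with -1.13 in HG3 and -0.03 in JVM3. FCRLB had 0.000567, with -0.83 in MEC1 and 0.22 in JVM3. These tests rest on technical replicates, so they compare these cultures and not independent repeats of a line. With 2 libraries in a group, no single library could be examined as standing apart.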

How the results depend on the processing

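Among single members, 225 of 260 log2 fold changes recomputed under another setting kept their direction and side of the threshold. The number of genes called across lines, 784, became 1333 with DESeq2, 2540 with no filter on low counts, 380 without JVM3, 320 without HG3 and 341 without MEC1. With the 12 libraries unsummed it was 6641, and 5084 with a replicate block, settings that treat technical replicates as independent. Members called across lines, 0 as reported, became 1 with DESeq2, 1 with RLE size factors, 1 with the filter on the summed libraries (an alternative chosen after seeing the data), 3 with no filter, 2 without MEC1 (1 of them FCRL2, which then rests on HG3 alone), 3 unsummed and 2 with the replicate block, and 0 to 1 on leaving out 1 replicate. FCRL5, which was called in each of these settings that made a call, had an adjusted p of 0.0211 to 0.0657 over the 12 leave-outs and of 1.80e-17 with no filter. Members called within JVM3 were 1 with DESeq2, which gave FCRL4 no adjusted p there, and 1 to 2 on leaving out a replicate, and within MEC1 3 to 5. The direction across lines turned for FCRL4 without JVM3 (0.17) and without HG3 (0.12) and for FCRL3 without HG3 (-0.38). FCRL3 within JVM3, on 26 counts a group, ran from -0.74 to 1.07, with 0.21 without mutant replicate 2. Junctions called, 998 as reported, were 536 without HG3 and 569 without MEC1, with 0 in these genes. The cause was not tested, beyond fewer samples on leaving a line out. Replicate numbers were checked for pairing on deviations from the group mean, and the correlation was 0.118 (JVM3), 0.0850 (HG3) and 0.417 (MEC1). The main tests did not pair libraries by number, although the MEC1 value was well above 0. A replicate block raised the genes called within lines from 4767 to 5773 (JVM3), 8145 to 8871 (HG3) and 7776 to 8603 (MEC1). Genes whose response differed between lines went from 6802 to 7992. Members called within lines stayed at 2, 5 and 5. Depth limits FCRL1, FCRL4, FCRL2 outside HG3 and the junctions of FCRL5, which had at most 247 reads.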
